A study of Mus musculus with 88 samples.

Results

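Hearts of dKO mice and of HET mice fed chow were compared at an age of 43 days. They were chosen by their labelled genotype, age and diet, which gave 12 dKO and 9 HET hearts, 21 of the 88 hearts in the series. Each heart was labelled as a biological replicate of its own and was measured on its own Affymetrix expression array. The dKO mice had the genotype SR-BI-/- apoE-/-, and the HET controls had the genotype SR-BI+/- apoE-/-. Both groups thus lacked apolipoprotein E, and they differed in Scarb1, the gene of the high-density lipoprotein receptor SR-BI, of which HET mice kept 1 working allele. Mice on the antioxidant drug probucol were part of the series and are not used here. The study's design text places extensive infarcts and severe heart failure in dKO mice at this age, which is close to their median survival, and no detectable coronary disease in HET mice on chow. The dKO hearts are therefore those of mice still alive at that age, the knockout is present in every tissue, and healthy, ischaemic and scarred muscle of 1 heart went into a single RNA sample.

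SR-BI takes cholesteryl ester from high-density lipoprotein into the liver, and apolipoprotein E is the ligand by which remnant lipoproteins are cleared. Without both, mice develop occlusive coronary lesions at a young age, with patchy infarction. After an infarct, neutrophils and monocytes clear dead muscle, fibroblasts lay down a collagen scar, and surviving cardiomyocytes under load switch on stress genes such as the natriuretic peptides while their fuel use shifts away from fatty acids. In RNA from a whole heart, fewer cells of a type and less RNA per cell cannot be told apart.

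All values below are log2 signals, floored at the 10th percentile of the series (a signal of 4.22) and centred so that every array has the same median. Differences are dKO minus HET on that scale, given ± SE, with limma's p adjusted by Benjamini and Hochberg over the 5672 genes tested and a threshold of 0.05. Before centring, the median signal of a dKO array was 46.9 to 75.4 and that of a HET array 35.4 to 75.4, and 7 of the 9 HET arrays were dimmer than every dKO array. This brightness moves with the groups, so the counts over all genes are given also for signals as deposited, after quantile normalization (with centring together called the 3 scalings) and with brightness as a covariate. List counts refer to centred signals, and those that moved by over 1.5 times as deposited are given for that scaling too. Where the mean of a group lay below 4.65, the limit on mean level for testing, its signal was not shown to be above background, and no fold is given. HET replicates 1 and 9, the brightest of their group, stood apart from the other HET arrays, and HET replicates 3, 4 and 5 belonged to a set of 20 arrays with a shared pattern that held no dKO heart of this age. Both sexes were present, with more signal of the Y-linked Eif2s3y than of Xist in 7 dKO and 5 HET hearts. The heart label held: 16 cardiomyocyte markers were tested, and their mean level lay between 9.40 and 10.60 in every heart.

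Of the 5672 genes, 1110 were higher (19.6%) and 1568 were lower (27.6%) in dKO hearts, 2678 in all (47.2%). Every list count below is to be set beside these shares. The change was at least 2-fold for 390 of the higher and 322 of the lower genes. The split depended on the scaling: with signals as deposited it was 2022 higher and 598 lower, so that 77.2% of the calls were rises against 41.4% after centring, and after quantile normalization it was 1271 and 1478 (46.2% rises; 1268 and 1477 where the filter was set anew on those values). The median difference of all genes was -0.09 after centring, 0.26 as deposited and -0.06 after quantile normalization. With the log2 median signal of each array as a covariate of the deposited signals, 1251 genes were higher and 1185 lower. In all 3 scalings, over the same probe sets, 1101 genes (19.4%) were higher and 598 (10.5%) lower. Without HET replicates 1 and 9 the counts were 1018 and 1773, and without HET replicates 3, 4 and 5 they were 1121 and 1291. The 12 dKO values lay entirely above the 9 HET values for 287 genes (5.06%) and entirely below them for 176 (3.1%). Genes under that limit are held in these counts too, which are likewise not set against each other. Scarb1 itself ranged from 6.21 to 6.95 (median 6.45) in dKO and from 6.95 to 7.86 (median 7.57) in HET hearts. The ranges met without overlapping, and the dKO signal was 2.06-fold lower, a difference of -1.04 ± 0.12 (adjusted p = 7.72e-08). Apoe was too dim on this array to be tested and ranged from 2.36 to 5.07 in dKO and from 2.28 to 4.91 in HET hearts.

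**Figure D1:**
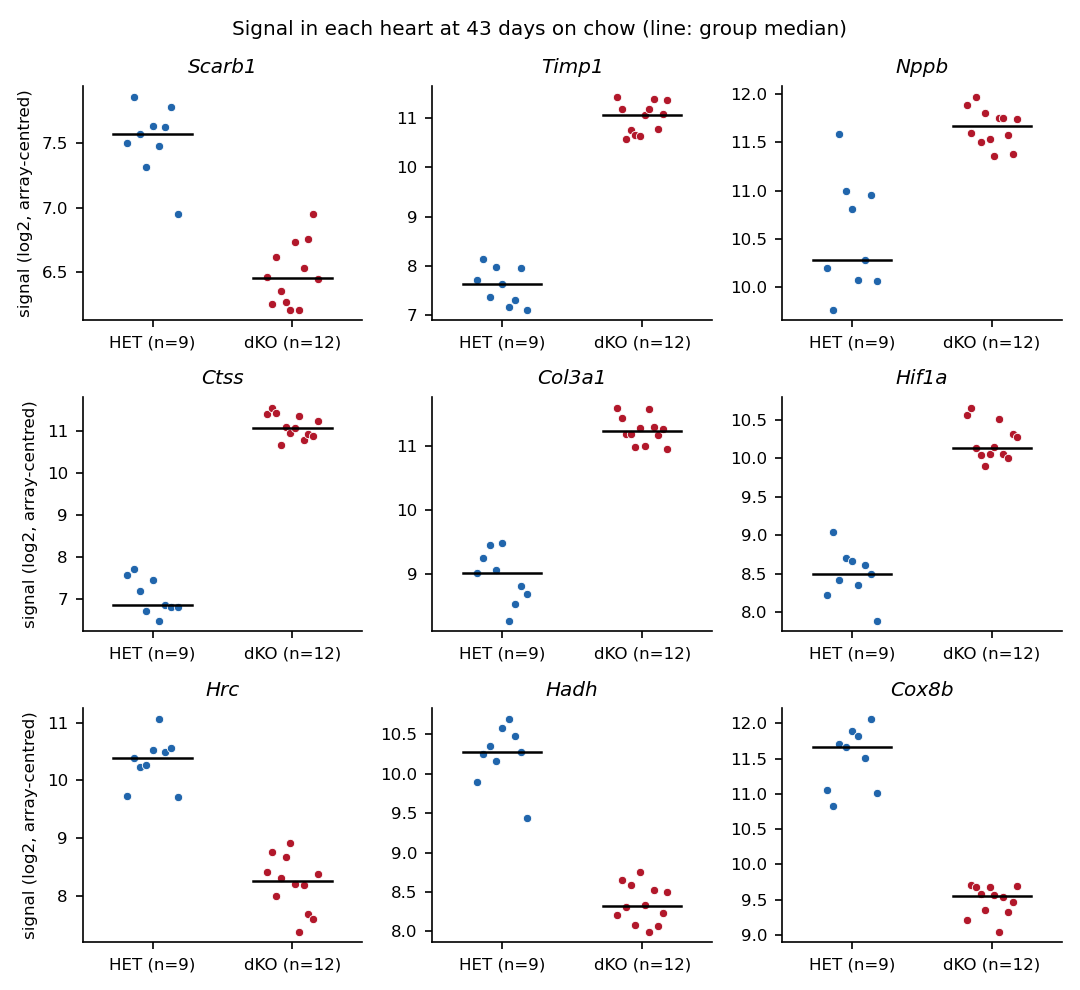
Log2 signal, centred on each array's median, of 9 genes in each of the 12 dKO hearts (red) and 9 HET hearts (blue) at 43 days on chow; the black line is the group median. Scarb1, Hrc, Hadh and Cox8b lie lower in every dKO heart than in any HET heart, Timp1, Ctss, Col3a1 and Hif1a lie higher, and Nppb overlaps.

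The largest rises belonged to secreted and leukocyte genes. Apod, apolipoprotein D, a carrier of small lipids, ranged from 10.30 to 11.08 (median 10.71) in dKO and from 2.26 to 5.66 (median 4.19) in HET hearts, higher without overlap (6.46 ± 0.29, adjusted p = 5.82e-16). Lgals3, the galactose-binding lectin galectin 3, and Mmp12, the elastase of macrophages, differed by 5.86 ± 0.30 and 6.13 ± 0.35 (adjusted p = 1.44e-14 and 1.58e-13). Sprr1a, a small proline-rich protein that stressed cardiomyocytes make, ranged from 8.29 to 9.69 (median 9.20) in dKO and from 4.07 to 5.64 (median 4.51) in HET hearts, and every dKO heart was above every HET heart (4.45 ± 0.20, adjusted p = 5.64e-16). Cd53, a tetraspanin of leukocytes, Isg20, an interferon-induced exonuclease, and Sirpa, an inhibitory receptor of myeloid cells, differed by 4.36 ± 0.21, 3.81 ± 0.25 and 3.74 ± 0.30 (adjusted p = 2.73e-15, 3.71e-12 and 9.77e-11). Of the tested genes 149 had a HET mean under the limit of 4.65, among them Mmp12 at 3.77. Such genes passed the filter through other, brighter arrays of the series, and the sizes of their rises are not set against those of falls. Where a list holds such genes, its share of rises depends in part on the filter. The largest falls included detoxifying enzymes. Gsta4, a glutathione transferase that clears products of lipid peroxidation, ranged from 2.84 to 5.65 (median 3.66) in dKO and from 4.87 to 6.77 (median 6.18) in HET hearts and was lower (-2.34 ± 0.34, adjusted p = 2.11e-06). Mgst3, a microsomal glutathione transferase, and Hopx, a homeodomain protein of cardiomyocytes, differed by -2.28 ± 0.18 and -2.06 ± 0.16 (adjusted p = 4.96e-11 and 4.09e-11).

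Markers of macrophages and monocytes were higher in dKO hearts for 17 of 18 tested members, with a median difference of 1.86, and all 17 calls held in the 3 scalings. Their mean level ran from 8.25 to 9.19 in dKO hearts and from 6.63 to 7.11 in HET hearts, with no overlap. Ccr2, the chemokine receptor that brings inflammatory monocytes out of the bone marrow, ranged from 5.97 to 8.11 (median 7.30) in dKO and from 2.00 to 4.64 (median 4.49) in HET hearts, where 1 HET heart was at the floor. Every dKO heart exceeded every HET heart, by 3.16 ± 0.28 on average (adjusted p = 6.91e-10). Adgre1, which encodes the macrophage surface protein F4/80, was higher by 2.57 ± 0.24 (adjusted p = 1.33e-09), and Fcgr2b, the inhibitory Fc receptor, 6.94-fold (2.80 ± 0.23, adjusted p = 1.44e-10). Neither gene's groups overlapped. C1qb, a chain of the complement protein C1q made by tissue macrophages, rose 3.66-fold (1.87 ± 0.15, adjusted p = 1.72e-10; another, dimmer probe set 0.68 ± 0.18). The member not called was Cx3cr1, the fractalkine receptor of resident macrophages and patrolling monocytes, at from 5.35 to 6.98 (median 6.51) in dKO and from 6.06 to 6.81 (median 6.53) in HET hearts. That difference was -0.07 ± 0.18 (adjusted p = 0.793) and 0.28 as deposited (adjusted p = 0.354), and the receptor for macrophage colony-stimulating factor, Csf1r, was 1.69-fold higher (0.76 ± 0.13, adjusted p = 3.83e-05, a call lost with the mean of its probe sets).

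Markers of other leukocytes gave fewer calls, to be set beside the 19.6% of all tested genes that were higher and the 27.6% that were lower. Among 6 neutrophil markers, 3 were higher, the alarmins S100a8 and S100a9 and the cathelicidin Camp, and 1 was lower, the granule protease Elane. S100a9 ranged from 6.17 to 8.56 (median 7.40) in dKO and from 2.78 to 4.38 (median 3.43) in HET hearts, with no overlap and a difference of 3.77 ± 0.28 (adjusted p = 1.95e-11). S100a8 differed by 3.08 ± 0.30 and Camp by 0.71 ± 0.25 (adjusted p = 4.50e-09 and 0.0193). Elane differed by -0.51 ± 0.20 (adjusted p = 0.0408), a call lost as deposited (adjusted p = 0.639) and when single hearts were left out (up to 0.0925). Both alarmins are also made by monocytes. The granule genes Mpo, Ngp, Ltf and Mmp8 were too dim to test. Of 4 T and NK cell markers Thy1, a surface protein that fibroblasts share, was higher by 0.77 ± 0.29 (adjusted p = 0.0331, and up to 0.0782 with a single heart left out), and the kinase gene Zap70 was lower by 0.94 ± 0.21 (adjusted p = 5.56e-04, and 0.0579 as deposited). Of 6 B cell markers 2 were lower and none higher, with Cd79a, the signalling chain of the B cell receptor, at -1.29 ± 0.20 and Ighm, the mu heavy chain, at -0.42 ± 0.15 (adjusted p = 8.49e-06 and 0.0199, the latter 0.761 as deposited). The T cell genes Cd3e, Cd3g, Cd3d and Cd8a were too dim to test, and Cd3g was at the floor in 6 of the 12 dKO and 4 of the 9 HET hearts.

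Chemokines, the ligands that draw these cells in, and their receptors were higher for 10 of 13 tested genes of the CC and CXC families, with a median difference of 1.56. Ccl8 and Ccl2, which act on monocytes, differed by 5.71 ± 0.16 and 4.75 ± 0.30 (adjusted p = 4.24e-20 and 1.57e-12). Ccl9, a product of myeloid cells, ranged from 9.79 to 11.52 (median 10.61) in dKO and from 6.76 to 8.55 (median 7.59) in HET hearts. The dKO hearts lay 7.33-fold higher without overlap (2.87 ± 0.22, adjusted p = 7.31e-11). The 2 lower members were Cxcl12 and its scavenger Ackr3, at -0.48 ± 0.13 and -0.45 ± 0.15, and both lost their call as deposited (adjusted p = 0.517 and 0.677), while another probe set of Cxcl12 differed by 1.88 ± 0.20. Of 16 cytokine and receptor genes 9 were higher, with a median of 0.95, and 1 was lower, the receptor gene Lifr at -0.51 ± 0.14 (adjusted p = 0.0036, and 0.387 as deposited). Il4ra, the receptor chain shared by interleukins 4 and 13, ranged from 7.26 to 9.17 (median 8.07) in dKO and from 3.53 to 6.23 (median 4.86) in HET hearts, a 9.88-fold difference without overlap (3.30 ± 0.28, adjusted p = 4.51e-10), though another, dimmer probe set differed by 0.18 ± 0.23. Socs3, the feedback inhibitor induced by interleukin 6 family cytokines, and Csf2rb2, a receptor chain for interleukin 3, were higher (2.58 ± 0.23 and 2.72 ± 0.25, adjusted p = 5.74e-10 and 1.08e-09).

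Complement and coagulation genes were higher for 11 of 18 members. Cfp, properdin, the stabiliser of the alternative pathway, and C3ar1, the receptor for the C3a fragment, differed by 2.53 ± 0.20 and 2.34 ± 0.14, each without overlap (adjusted p = 7.12e-11 and 4.07e-13). F3, tissue factor, the starter of coagulation and a product of cardiomyocytes, was the lower member and fell by 1.24 ± 0.22 (adjusted p = 4.01e-05). Genes of MHC class II presentation were higher for 6 of 9 members, H2-Aa by 1.30 ± 0.14 and H2-DMa by 1.43 ± 0.20 (adjusted p = 1.36e-08 and 1.13e-06), with a dimmer probe set of H2-DMa at -0.46 ± 0.20. In the group of class I presentation and interferon response 17 of 28 were higher. Rsad2, the antiviral enzyme viperin, ranged from 6.34 to 7.93 (median 7.21) in dKO and from 2.17 to 4.86 (median 3.52) in HET hearts, with 1 HET heart at the floor. Its groups did not overlap (3.46 ± 0.27, adjusted p = 8.37e-11), and Irf8, a transcription factor of monocytes, rose by 2.22 ± 0.14 (adjusted p = 5.32e-13). The sole lower member was Psme1, a proteasome activator subunit, at -0.74 ± 0.17 (adjusted p = 5.87e-04).

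Lysosomal genes were higher for 26 of 33 members and lower for none, with a median of 1.03. For 16 of them every dKO value exceeded every HET value. Lgmn, the protease legumain, ranged from 8.66 to 10.11 (median 9.43) in dKO and from 6.75 to 7.46 (median 7.13) in HET hearts, a 4.51-fold difference (2.17 ± 0.14, adjusted p = 1.40e-12). Cd68, a lysosomal membrane protein of macrophages, and Ctsb, cathepsin B, were 4.83-fold and 2.83-fold higher (2.27 ± 0.15 and 1.502 ± 0.11, adjusted p = 1.57e-12 and 2.41e-11). In the group of scavenger receptors and cholesterol efflux 15 of 20 were higher and 4 lower. Abca1, the pump that loads cholesterol onto apolipoprotein A-I, ranged from 9.35 to 9.997 (median 9.57) in dKO and from 6.70 to 7.74 (median 7.36) in HET hearts. It was 4.88-fold higher without overlap (2.29 ± 0.12, adjusted p = 1.44e-14), and Pltp, the phospholipid transfer protein, 3.23-fold (1.69 ± 0.13, adjusted p = 4.92e-11). The 4 lower members were Scarb1, Cd36, Lpl and Vldlr. Cd36, the fatty acid carrier of cardiomyocytes and capillaries, fell by 1.25 ± 0.17 and Vldlr, a receptor for triglyceride-rich particles, by 1.53 ± 0.19 (adjusted p = 1.25e-06 and 2.85e-07).

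Scar matrix genes were higher too. Of 23 collagens and collagen-modifying enzymes 16 were higher, with a median difference of 0.56. Col1a1, the main chain of scar collagen, ranged from 11.06 to 11.77 (median 11.47) in dKO and from 8.75 to 9.80 (median 9.39) in HET hearts. Every dKO heart was above every HET heart (2.15 ± 0.13, 4.42-fold, adjusted p = 4.65e-13), while another probe set of the gene differed by 1.02 ± 0.10. Lox, which cross-links collagen, differed by 5.58 ± 0.30, with 3 HET hearts at the floor, and another, dimmer probe set by 0.44 ± 0.37. Col1a2, the partner chain of Col1a1, gave opposite answers: the probe set that stands for it by its higher mean over the series fell by 0.60 ± 0.10, whereas the other rose by 1.97 ± 0.14. No direction is read for this gene, though the counts over genes and lists hold it as lower by the first probe set. Among 24 matrix glycoproteins and proteoglycans 14 were higher and 5 lower, and as deposited 16 and 1. Fbln2, fibulin 2, ranged from 9.48 to 10.43 (median 10.10) in dKO and from 7.60 to 8.63 (median 8.21) in HET hearts and rose 3.6-fold (1.85 ± 0.13, adjusted p = 9.71e-12). Fn1, fibronectin, rose 2.41-fold (1.27 ± 0.09, adjusted p = 2.09e-11). The lower gene in every scaling was the leucine-rich proteoglycan Ogn (-0.89 ± 0.16, adjusted p = 4.09e-05). The other 4, fibulin 1 (Fbln1) and the laminin chains Lamb2, Lamc1 and Lama2, differed by -0.58 ± 0.12, -0.62 ± 0.12, -0.39 ± 0.12 and -0.25 ± 0.09, and lost their calls as deposited (adjusted p = 0.196, 0.157, 0.816 and 0.587). Lama2 also lost its call with a single heart left out (adjusted p up to 0.0651).

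Enzymes that cut matrix and their inhibitors were higher for 7 of 11 members, with none lower. The array held 19 of these genes, and the others were too dim to test. Mmp12, with a HET mean of 3.77, passed through brighter arrays, so this share depends in part on the filter. Mmp3, stromelysin 1, ranged from 7.47 to 9.02 (median 8.44) in dKO and from 2.50 to 5.01 (median 4.37) in HET hearts, higher without overlap (4.14 ± 0.25, adjusted p = 5.03e-13). Plat, tissue plasminogen activator, rose 2.6-fold (1.38 ± 0.11, adjusted p = 2.26e-10). Signalling genes of the TGF-beta, CCN and activin families were higher for 8 of 14, with a median of 0.71. Tgfbi, a matrix protein induced by TGF-beta, and Fstl1, a secreted protein that binds activins, rose by 1.51 ± 0.18 and 1.42 ± 0.10 (adjusted p = 1.32e-07 and 4.54e-12). The fibroblast marker list as a whole was higher for 9 of 16 members (14 as deposited) and lower for 1 (Col1a2, whose probe sets disagree), with a median of 0.60. Its mean level was 8.36 to 8.77 in dKO against 7.57 to 8.00 in HET hearts. S100a4, which macrophages express as well, differed by 2.66 ± 0.16 (adjusted p = 4.65e-13). Of 12 smooth muscle and myofibroblast genes 1 was higher (Cnn2, 0.42 ± 0.13) and 3 were lower, with a median of -0.18. The lower share of 25% was near the 27.6% of all tested genes. As deposited 4 were higher and 0 lower, with a median of 0.17, and with brightness as a covariate 1 and 0. Acta2, the actin of myofibroblasts and vessel walls, ranged from 8.14 to 8.93 (median 8.51) in dKO and from 8.27 to 9.67 (median 8.73) in HET hearts. It was lower by 0.42 ± 0.15 (adjusted p = 0.0211), with overlap. Myh11 and Cnn1 differed by -0.93 ± 0.26 and -1.09 ± 0.44 (adjusted p = 0.00455 and 0.0424). None of these 3 kept its call as deposited (adjusted p = 0.69, 0.0508 and 0.193), and Acta2 and Cnn1 also lost it when single hearts were left out (largest adjusted p 0.0534 and 0.106).

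Natriuretic peptide and stress genes were higher for 11 of 17 members and lower for 3, with a median difference of 0.68. Nppb, the B-type natriuretic peptide, ranged from 11.36 to 11.98 (median 11.67) in dKO and from 9.76 to 11.59 (median 10.28) in HET hearts. The groups overlapped, 7 dKO hearts lay above every HET heart, and the difference was 1.13 ± 0.17 (2.19-fold, adjusted p = 4.17e-06). Nppa, the atrial peptide, ranged from 10.67 to 11.65 (median 11.16) in dKO and from 10.02 to 11.02 (median 10.59) in HET hearts, which was 0.61 ± 0.14 or 1.53-fold (adjusted p = 5.72e-04), and 9 dKO hearts exceeded the HET range. The ranges of both peptides thus overlapped, unlike those of the next genes. Timp1, the inhibitor of matrix proteases, ranged from 10.59 to 11.44 (median 11.07) in dKO and from 7.10 to 8.13 (median 7.62) in HET hearts, 10.7-fold without overlap (3.42 ± 0.14, adjusted p = 2.32e-16). Actn1, the alpha-actinin of non-muscle cells, rose by 1.29 ± 0.10 (adjusted p = 9.07e-11), also without overlap. Fhl1, a sensor of stretch at the sarcomere, differed by 1.61 ± 0.22 (another probe set 0.78 ± 0.16) and Ankrd1, a stretch-induced ankyrin repeat protein, by 0.59 ± 0.15 (adjusted p = 9.14e-07 and 0.00206). Rcan1, a target of calcineurin, rose by 0.68 ± 0.13 and the chaperone gene Clu by 0.85 ± 0.15 (adjusted p = 8.51e-05 and 2.88e-05).

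Of the 3 lower members, 2 handle the peptides after synthesis. Corin, the protease that turns pro-atrial peptide into its active form, ranged from 6.41 to 7.07 (median 6.73) in dKO and from 7.29 to 8.30 (median 7.72) in HET hearts. No dKO heart reached the lowest HET heart (-0.92 ± 0.12, adjusted p = 3.95e-07). Npr3, the clearance receptor, differed by -1.02 ± 0.20 (adjusted p = 1.05e-04). Cryab, a small heat shock protein, differed by -0.26 ± 0.10 (adjusted p = 0.041), a call that was lost as deposited, where the difference was 0.09, and when single hearts were left out (largest adjusted p 0.085). Acta1, Xirp1 and Myh7, of the fetal programme, were not called. Acta1, skeletal actin, ranged from 10.62 to 11.63 (median 11.23) in dKO and from 9.92 to 11.57 (median 10.84) in HET hearts (0.32 ± 0.19, adjusted p = 0.187). Xirp1 differed by 0.32 ± 0.17 (adjusted p = 0.115), and Myh7 by 0.18 ± 0.15 (adjusted p = 0.353), where another probe set differed by -0.77 ± 0.24 and both may bind related myosin transcripts. As deposited these 3 differences were 0.66, 0.67 and 0.53 and passed the threshold (adjusted p = 0.00269, 0.00277 and 0.0091).

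Because the stress genes share reported control elements, their promoters are shown to set the response beside the sequence. The windows are the 250 bases before the start site in RefSeq, build GRCm38.p6, printed 5′ to 3′ along the gene. Capitals mark 2 motifs searched on both strands: the CArG box, which serum response factor binds, and CATTCC, the M-CAT element of TEAD factors, which reads GGAATG when it lies on the other strand. The CArG box was in 1.47% and CATTCC in 12.6% of all 32851 promoters. Sprr1a and Timp1 belong to the 4 members with the smallest p, and Nppb and Acta1 were added after the search because they hold motifs.
Sprr1a, minus strand, chr3:92485882-92486131: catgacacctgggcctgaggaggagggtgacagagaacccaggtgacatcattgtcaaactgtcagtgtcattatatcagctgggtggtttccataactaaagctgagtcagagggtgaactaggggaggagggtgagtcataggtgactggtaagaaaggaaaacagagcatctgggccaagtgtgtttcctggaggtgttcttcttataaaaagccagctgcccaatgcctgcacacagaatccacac
Timp1, plus strand, chrX:20869916-20870165: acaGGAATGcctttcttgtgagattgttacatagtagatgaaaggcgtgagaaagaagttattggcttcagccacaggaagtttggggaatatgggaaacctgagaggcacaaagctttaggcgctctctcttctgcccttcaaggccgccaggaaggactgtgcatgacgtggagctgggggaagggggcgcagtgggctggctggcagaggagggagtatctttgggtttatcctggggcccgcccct
Nppb, plus strand, chr4:147985650-147985899: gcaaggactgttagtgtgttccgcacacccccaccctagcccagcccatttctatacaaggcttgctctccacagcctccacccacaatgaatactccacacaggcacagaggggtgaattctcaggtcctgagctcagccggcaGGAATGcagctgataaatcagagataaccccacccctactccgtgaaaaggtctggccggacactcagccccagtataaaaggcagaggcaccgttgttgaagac
Acta1, minus strand, chr8:123894776-123895025: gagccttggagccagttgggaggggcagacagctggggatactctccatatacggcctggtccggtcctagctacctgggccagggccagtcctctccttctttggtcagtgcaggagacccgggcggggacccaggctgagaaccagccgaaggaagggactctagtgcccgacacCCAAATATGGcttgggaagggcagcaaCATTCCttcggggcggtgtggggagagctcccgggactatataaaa
Sprr1a, which rose 21.9-fold, held neither motif in this window. Acta1, which was called as deposited but not after centring, held both. Its CArG box began at position -73 from the start site and its CATTCC at -46. Nppb held CATTCC at -105 and Timp1 at -247. Of the 17 tested members 13 had an entry, with 16 promoters; 2 genes held a CArG box (Acta1 and Fhl1) and 5 held the M-CAT element (Acta1, Ankrd1, Myh7, Nppb and Timp1). A match describes the letters only, and an absent match says nothing of sites outside the window.

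Cardiomyocyte markers were lower for 14 of 16 members with a median difference of -0.75, and 9 of the 14 held in the 3 scalings; the count was also 9 without HET replicates 3, 4 and 5 and with brightness as a covariate. Their mean level was 9.40 to 9.81 in dKO hearts and 9.60 to 10.60 in HET hearts, so the groups overlapped. In the list of adult and fetal sarcomere isoforms 15 of 24 were lower and 1 higher, with a median of -0.44, and 10 of the 15 held in the 3 scalings. As deposited 10 were lower and 5 higher. Light chains of atrial myosin were among the lower members. Myl7, the atrial regulatory light chain, ranged from 8.58 to 10.66 (median 9.79) in dKO and from 10.80 to 12.26 (median 11.48) in HET hearts. Every dKO heart was below every HET heart, by 3.49-fold (-1.80 ± 0.21, adjusted p = 1.11e-07), and Myl4, the atrial essential light chain, fell by 1.14 ± 0.23 (adjusted p = 2.06e-04, a call lost with the mean of its probe sets at -0.35, the other set being at 0.44 ± 0.15). Of 6 atrial markers 2 were lower (Myl7 and Myl4), 1 was higher (Nppa) and 3 were not called. The mean level of the 6 was 7.27 to 8.34 in dKO and 8.11 to 8.71 in HET hearts, with overlap. The share of atrial tissue in each sample was not measured. Ldb3, a Z-disc protein, ranged from 8.48 to 9.72 (median 9.21) in dKO and from 9.43 to 11.003 (median 10.56) in HET hearts. It was 2.26-fold lower (-1.17 ± 0.18, adjusted p = 4.71e-06), with 9 dKO hearts below the HET range.

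Ventricular components were lower too, and some of these calls depended on the scaling. Myh6, the alpha myosin heavy chain of the adult heart, and Tnni3, cardiac troponin I, differed by -0.91 and -0.90, both called lower. The sizes of atrial and ventricular differences were not tested against each other. Mybpc3, cardiac myosin-binding protein C, fell by 0.69 ± 0.14, Tnnc1, cardiac troponin C, by 0.67 ± 0.13, and Myl3, the ventricular essential light chain, by 0.85 ± 0.15 (adjusted p = 1.41e-04, 1.50e-04 and 2.73e-05), and these 3 held in the 3 scalings. Tnnt2, cardiac troponin T, differed by -0.47 ± 0.12 and Actc1, cardiac actin, by -0.42 ± 0.14 (adjusted p = 0.00289 and 0.019). Neither kept its call as deposited (adjusted p = 0.107 and 0.348). Tnni1, the slow and fetal troponin I, differed by -0.34 ± 0.15 after centring and 0.01 as deposited, without a call in either (adjusted p = 0.0636 and 0.972). The sole rise was in Tpm1, tropomyosin 1, at 0.85 ± 0.14 (adjusted p = 2.37e-05), with overlap.

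Calcium handling genes of the sarcoplasmic reticulum were lower for 7 of 12 and higher for 2, and as deposited for 6 and 4. Hrc, the histidine-rich calcium-binding protein of the reticulum lumen, ranged from 7.38 to 8.91 (median 8.26) in dKO and from 9.71 to 11.07 (median 10.38) in HET hearts. That was 4.34-fold lower without overlap (-2.12 ± 0.18, adjusted p = 4.22e-10). The calcium buffers Casq2 and Casq1 fell by 0.94 ± 0.11 and 1.30 ± 0.13 (adjusted p = 7.69e-08 and 4.60e-09), both without overlap, and Ryr2, the release channel, by 0.88 ± 0.12 (adjusted p = 1.30e-06). Higher were Sri, sorcin, a calcium-binding regulator of that channel, at 1.15 ± 0.21 (adjusted p = 7.58e-05), and Stim1, a store sensor found in many cell types, at 0.56 ± 0.21 (adjusted p = 0.032, and up to 0.0709 with a single heart left out). Ion channel and gap junction genes were lower for 11 of 14, though 3 of those calls held as deposited and 7 members were called without HET replicates 3, 4 and 5. Kcnk3, a background potassium channel, ranged from 4.22 to 6.04 (median 5.51) in dKO and from 5.96 to 7.12 (median 6.99) in HET hearts (-1.43 ± 0.22, adjusted p = 4.64e-06). It was the steepest of the group, with 11 dKO hearts below the HET range. Kcnj11, the pore of the ATP-sensitive potassium channel, and Fxyd1, phospholemman, the regulator of the sodium pump, fell by 1.38 ± 0.25 and 0.97 ± 0.14 (adjusted p = 5.23e-05 and 1.75e-06).

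Fatty acid uptake and oxidation genes were lower for 25 of 28 members with a median of -1.13, and 21 held in the 3 scalings. Cpt2, which releases fatty acyl groups inside mitochondria, ranged from 8.60 to 9.40 (median 9.05) in dKO and from 9.57 to 10.64 (median 10.25) in HET hearts. The groups did not overlap, at 2.35-fold (-1.23 ± 0.12, adjusted p = 5.94e-09). Hadh and Ech1, of the oxidation spiral, were 3.69-fold and 3.83-fold lower without overlap. Citrate cycle and pyruvate oxidation genes were lower for 21 of 23, with a median of -0.95. Idh2, mitochondrial isocitrate dehydrogenase, and Pdha1, the catalytic subunit of pyruvate dehydrogenase, fell by 1.30 ± 0.13 and 1.10 ± 0.12 (adjusted p = 8.61e-09 and 2.48e-08). Breakdown of branched-chain amino acids and ketone bodies followed, with 11 of 12 lower and a median of -1.07. Ivd, which acts on leucine, fell by 1.41 ± 0.16 and Oxct1, the gate to ketone use, by 1.14 ± 0.13 (adjusted p = 4.56e-08 and 5.99e-08).

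Respiratory chain genes were lower for 26 of 27 subunits of complex I (median -1.11, 25 held in the 3 scalings) and for 28 of 32 subunits of complexes III, IV and the ATP synthase (median -0.83, 25 held). Ndufa13, an accessory subunit of complex I, ranged from 7.90 to 8.41 (median 8.25) in dKO and from 9.44 to 9.88 (median 9.55) in HET hearts. Its groups did not overlap (-1.36 ± 0.08, adjusted p = 6.54e-13). Ndufa3 and Ndufv3 were 2.54-fold and 3.44-fold lower (adjusted p = 2.18e-09 and 2.04e-08). In complex III Uqcr11 fell by 1.74 ± 0.16 (adjusted p = 1.66e-09), without overlap.

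In the pairs given here, muscle and general forms of the same enzyme differed in size or in direction. Cytochrome oxidase, complex IV, has subunits with a heart and skeletal muscle form and a widely expressed form. Cox8b, a muscle form, ranged from 9.04 to 9.71 (median 9.55) in dKO and from 10.82 to 12.07 (median 11.67) in HET hearts. It was 4.06-fold lower without overlap (-2.02 ± 0.14, adjusted p = 6.91e-12). In the pair of subunit 7a, the muscle form Cox7a1 differed by -2.01 ± 0.18 and the general form Cox7a2 by -1.13 ± 0.14 (adjusted p = 1.21e-09 and 1.76e-07). In the pair of subunit 6a, the muscle form Cox6a2 differed by -1.16 ± 0.17 (adjusted p = 2.66e-06) and the general form Cox6a1 by -0.29 ± 0.13 (adjusted p = 0.0653), and 0.06 as deposited. Cox8a, the general partner of Cox8b, was too dim to test.

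Of 20 genes of glucose uptake and glycolysis 14 were lower and 3 higher (10 and 5 as deposited). That was 70% lower and 15% higher, against 27.6% and 19.6% of all tested genes. Forms of the same enzyme moved in opposite directions in phosphofructokinase and phosphoglycerate mutase. Of these, Pfkp, Pfkl and Pgam2 were chosen after their values were seen, and isoforms of other enzymes in the list are not given. Of phosphofructokinase, the muscle subunit Pfkm ranged from 8.48 to 9.48 (median 9.02) in dKO and from 9.68 to 11.06 (median 10.58) in HET hearts (-1.46 ± 0.15, adjusted p = 1.30e-08). The platelet subunit Pfkp was higher by 0.98 ± 0.21 and the liver subunit Pfkl by 0.58 ± 0.10 (adjusted p = 3.89e-04 and 2.36e-05). Of phosphoglycerate mutase, the muscle form Pgam2 fell by 1.25 ± 0.15 (adjusted p = 1.61e-07), whereas Pgam1, the general form, ranged from 8.06 to 8.95 (median 8.51) in dKO and from 6.51 to 7.53 (median 7.22) in HET hearts. Pgam1 was 2.62-fold higher without overlap (1.39 ± 0.13, adjusted p = 1.62e-09). Slc2a4, the insulin-responsive glucose transporter GLUT4, and Pygm, muscle glycogen phosphorylase, were 2.66-fold and 4.07-fold lower without overlap (-1.41 ± 0.16 and -2.02 ± 0.14, adjusted p = 5.75e-08 and 4.37e-12). Creatine kinases, which shuttle phosphate to the myofibrils, did not show this opposition: the muscle form Ckm was lower by 2.06 ± 0.14 and the brain form Ckb by 1.03 ± 0.16 (adjusted p = 5.97e-12 and 5.23e-06), though another, dimmer probe set of Ckm differed by 0.32 ± 0.26. The differences within pairs were not tested, and the muscle forms move with the cardiomyocyte markers given above, whose part was not tested either.

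**Figure D2:**
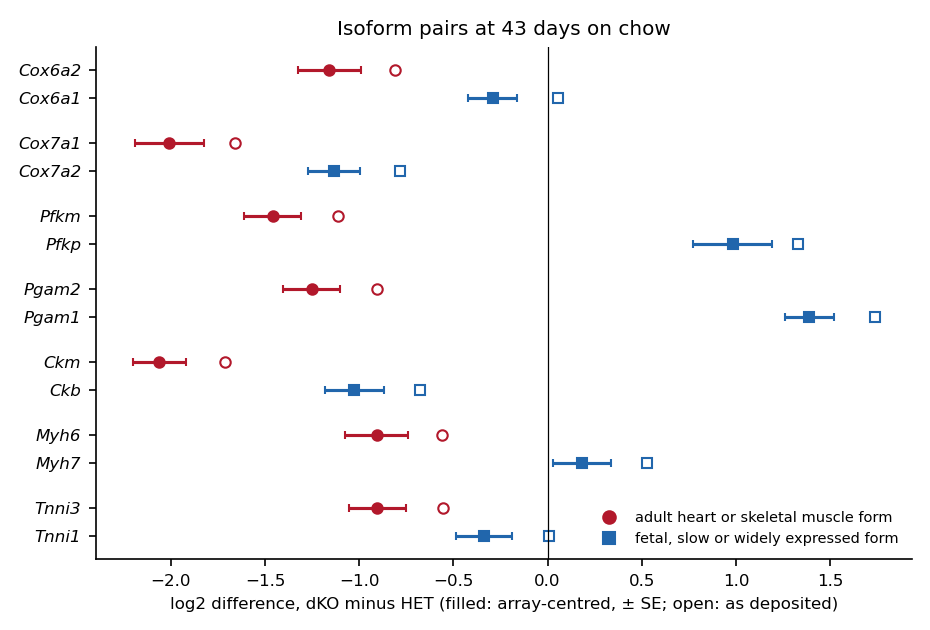
Log2 difference, dKO minus HET, at 43 days of the adult heart or skeletal muscle form (red circles) and the fetal, slow or widely expressed form (blue squares) in 7 pairs; filled symbols are array-centred with ± SE (n = 12 and 9), open symbols are signals as deposited. Pfkp and Pgam1 lie above 0 while Pfkm and Pgam2 lie below it, in both scalings.

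Regulators of these programmes were lower for 8 of 11 members. Esrra, the oestrogen-related receptor alpha, ranged from 7.23 to 8.15 (median 7.92) in dKO and from 8.19 to 9.08 (median 8.63) in HET hearts. Its groups did not overlap (-0.79 ± 0.12, adjusted p = 6.36e-06). Ppara, the receptor that drives fatty acid oxidation, differed by -0.79 ± 0.14 (adjusted p = 3.84e-05), with 11 dKO hearts below the HET range. Of the 2 higher members, Nr1h3, the liver X receptor alpha that macrophages use to switch on cholesterol efflux, differed by 0.72 ± 0.22 (adjusted p = 0.00894). The other, Rxra, a partner of nuclear receptors, differed by 0.55 ± 0.23 (adjusted p = 0.0476, and up to 0.116 with a single heart left out), with another probe set at -0.36 ± 0.25.

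**Figure D3:**
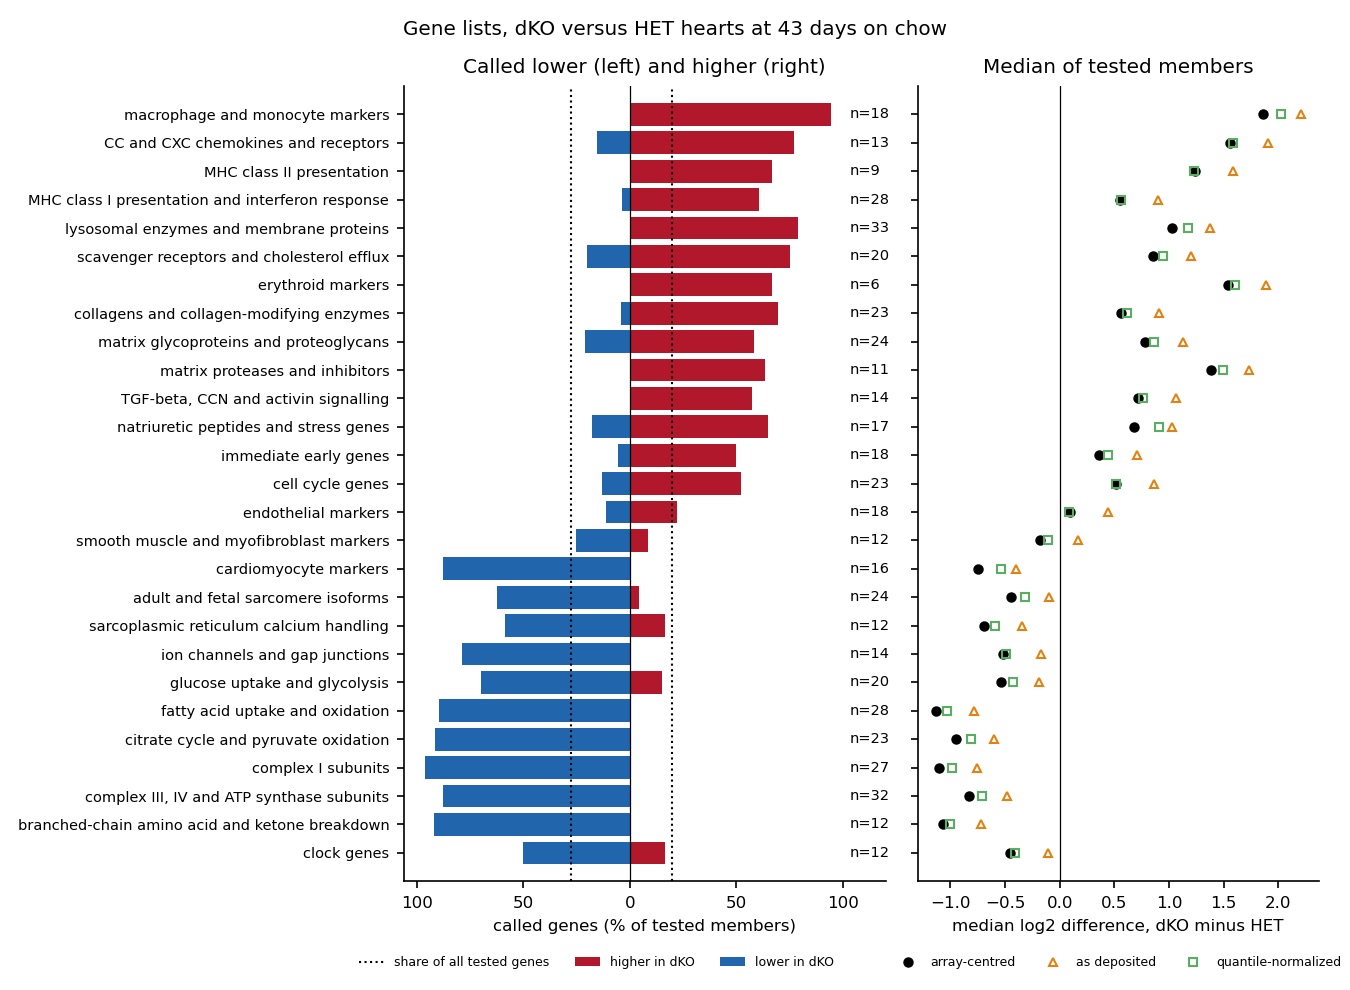
Left, percent of tested members of each gene list called lower (blue, to the left) or higher (red, to the right) in dKO hearts at 43 days, with the number tested and dotted lines at the share of all tested genes (27.6% lower, 19.6% higher); right, median log2 difference of the tested members under the 3 scalings. Macrophage markers reach 94.4% higher and complex I subunits 96.3% lower, and their medians keep their sign in the 3 scalings.

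Red cell genes were higher in dKO hearts for 4 of 6 tested members. Alas2, which starts haem synthesis in erythroid cells, ranged from 9.93 to 10.51 (median 10.36) in dKO and from 5.68 to 7.24 (median 6.68) in HET hearts. It was 12.1-fold higher without overlap (3.59 ± 0.15, adjusted p = 3.55e-16). Slc4a1, the band 3 anion exchanger, Car2, carbonic anhydrase, and Hba-a1, alpha globin, differed by 1.88 ± 0.31, 2.12 ± 0.23 and 1.19 ± 0.17 (adjusted p = 1.59e-05, 2.65e-08 and 1.42e-06). The blood left in each heart was not measured. Haem and iron genes of tissue cells rose beside them for Hmox1, Hp, Slc11a1 and Cp, 4 of 13, and Urod and Alas1, of haem synthesis, were lower (-1.06 ± 0.14 and -0.58 ± 0.15, adjusted p = 1.03e-06 and 0.00198, the latter 0.0715 as deposited). That was 30.8% higher and 15.4% lower, against 19.6% and 27.6% of all tested genes. Hmox1, haem oxygenase 1, ranged from 9.55 to 10.83 (median 10.35) in dKO and from 7.85 to 8.16 (median 7.97) in HET hearts, a 4.62-fold difference without overlap (2.21 ± 0.14, adjusted p = 1.40e-12). Slc11a1, the iron exporter of phagosomes, rose by 2.27 ± 0.17 and Hp, which binds free haemoglobin, by 1.97 ± 0.18 (adjusted p = 4.06e-11 and 1.06e-09).

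Vessel genes were called in both directions: of 18 endothelial markers 4 were higher, 2 were lower and the median was 0.09. Among all tested genes 19.6% were higher and 27.6% lower, against 22.2% and 11.1% of these markers. The higher count was 7 as deposited and with brightness as a covariate, and 2 without HET replicate 9, where Eng and Icam2 were not called (adjusted p up to 0.0566 and 0.0516 with a single heart left out). Both with and without the arrays that stood apart, Mcam and Vwf were higher and Aqp1 and Cd36 lower. Aqp1, the water channel of capillaries, ranged from 7.15 to 8.33 (median 7.78) in dKO and from 9.06 to 10.68 (median 9.87) in HET hearts. It was 4.32-fold lower without overlap (-2.11 ± 0.20, adjusted p = 2.42e-09; another, dimmer probe set -1.02 ± 0.29), in the opposite direction to Mcam at 1.05 ± 0.12 and Vwf at 0.59 ± 0.14 (adjusted p = 8.09e-08 and 8.29e-04). In the hypoxia and angiogenesis group 6 of 20 were higher and 7 lower, and 3 and 6 of these calls held without each set of arrays that stood apart. These shares of 30% and 35% stood beside 19.6% and 27.6% of all tested genes. Hif1a, the oxygen-regulated transcription factor, ranged from 9.90 to 10.66 (median 10.14) in dKO and from 7.89 to 9.05 (median 8.50) in HET hearts. It rose 3.32-fold without overlap (1.73 ± 0.12, adjusted p = 1.21e-11), whereas Vegfb, a growth factor tied to mitochondrial genes, fell by 1.04 ± 0.12 (adjusted p = 4.30e-08).

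Cell cycle genes were higher for 12 of 23. Ccna2, cyclin A2, ranged from 6.88 to 7.77 (median 7.37) in dKO and from 4.90 to 6.68 (median 5.82) in HET hearts (1.52 ± 0.18, adjusted p = 1.46e-07), and Cdk1 differed by 1.96 ± 0.26 (adjusted p = 6.77e-07). The cell cycle inhibitor Cdkn1c ranged from 5.05 to 5.996 (median 5.25) in dKO and from 6.45 to 7.42 (median 7.06) in HET hearts, lower without overlap (-1.68 ± 0.14, adjusted p = 4.04e-10), while the inhibitor Cdkn1a rose by 1.19 ± 0.23 (adjusted p = 1.35e-04). Immediate early genes were higher for 9 of 18 (50%), among them Egr2 at 2.44 ± 0.32 and Atf3 at 1.63 ± 0.17 (adjusted p = 5.78e-07 and 1.27e-08). S100 proteins, annexins and galectins were higher for 15 of 20 (75%). The leukocyte actin regulators Capg and Lcp1 were among the higher cytoskeletal genes at 3.65 ± 0.19 and 2.25 ± 0.20 (adjusted p = 2.95e-14 and 5.15e-10), with a dimmer probe set of Capg at 0.33 ± 0.27.

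Antioxidant genes were called in both directions, with 9 of 31 higher (29.0%) and 14 lower (45.2%), against 19.6% and 27.6% of all tested genes. The metal-binding protein gene Mt2 ranged from 11.002 to 11.96 (median 11.34) in dKO and from 9.03 to 10.09 (median 9.86) in HET hearts, higher without overlap (1.71 ± 0.15, adjusted p = 6.55e-10). Prdx3, the mitochondrial peroxiredoxin, fell by 0.92 ± 0.09 (adjusted p = 2.67e-09), also without overlap. Among 12 clock genes 6 were lower, the outputs Dbp, Nr1d1, Nr1d2 and Nfil3 and the repressors Cry2 and Per3 (the last without a call as deposited, adjusted p = 0.545), and 2 were higher, Arntl and Bhlhe40. That was 50% lower and 16.7% higher, against 27.6% and 19.6% of all tested genes. Dbp ranged from 3.87 to 6.29 (median 5.15) in dKO and from 5.80 to 8.37 (median 7.56) in HET hearts and Arntl from 5.06 to 6.08 (median 5.51) in dKO and from 2.17 to 5.88 (median 4.64) in HET hearts. Both overlapped, at -2.22 ± 0.31 and 1.10 ± 0.34 (adjusted p = 1.15e-06 and 0.0092). The sources used here do not give the hour at which hearts were taken. Of 17 genes that glucocorticoids induce 5 were higher and 5 lower, and as deposited 9 and 2. After centring that was 29.4% each way, against 19.6% higher and 27.6% lower among all tested genes. Mt2 and Cdkn1a, given above, were among the higher ones, and Zbtb16 was lower by 1.93 ± 0.22 without overlap (adjusted p = 4.92e-08).

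The genotype difference at 43 days was then set against that at 31 days, where 10 dKO and 10 HET hearts share no array with the later ones. For 519 genes (9.15%) the difference changed, to the positive side for 383 (6.75%) and to the negative side for 136 (2.4%). Of the genes higher at 43 days 356 had a change to the positive side, and of those lower 130 had one to the negative side. The direction at 31 days was not required, and the values at 43 days enter both the call and the change. The 5 largest upward changes were in scar and matrix genes. Col3a1 differed by 0.12 at 31 days and 2.28 ± 0.14 at 43 days, a change of 2.17 ± 0.21 (adjusted p = 8.93e-10). Lox went from 2.41 to 5.58 ± 0.30, a change of 3.16 ± 0.47 (adjusted p = 1.39e-05), and Mmp3 from 1.58 to 4.14 ± 0.25, a change of 2.56 ± 0.35 (adjusted p = 2.56e-06). Collagen genes changed upward for 10 of 23, with a median of 0.07 at 31 days against 0.56 at 43 days. Col5a2, a chain of collagen V, and Postn, periostin of activated fibroblasts, had changes of 2.18 ± 0.23 and 2.09 ± 0.23 (adjusted p = 1.03e-08 and 1.07e-08).

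Macrophage markers, with a median of 1.02 at 31 days and 1.86 at 43 days, changed upward for 10 of 18, and lysosomal genes for 17 of 33. Apod differed by 6.14 and Hmox1 by 1.97 at 31 days, and their changes of 0.33 ± 0.48 and 0.24 ± 0.19 were not called (adjusted p = 0.737 and 0.4929). Nppa differed by -0.03 at 31 days, and its change of 0.64 ± 0.20 passed the threshold (adjusted p = 0.0313), as did those of Sprr1a at 1.89 ± 0.37 and Hif1a at 1.44 ± 0.16 (adjusted p = 6.23e-04 and 3.02e-08). On the negative side, complex I subunits had a median of -0.60 at 31 days and changed downward for 7 of 27. Hrc changed by -1.09 ± 0.23 and Hadh by -1.02 ± 0.21 (adjusted p = 0.00151 and 0.00113). The 5 largest downward changes were Ces1d, a lipid-hydrolysing carboxylesterase of fat cells, with -2.30 ± 0.66, Fbp2, muscle fructose bisphosphatase, with -1.99 ± 0.49, Reln, the secreted protein reelin, with -1.92 ± 0.54, Cyp2b10, a cytochrome P450, with -1.79 ± 0.52 and Rxrg, the retinoid X receptor gamma, with -1.74 ± 0.48. Their adjusted p values were 0.0187, 0.00593, 0.0171, 0.0215 and 0.0151. Without the arrays of the smaller set 324 genes changed, 228 of them upward, and none of these 5 passed; without HET replicate 9 the downward count was 207. Rxrg did not pass with a floor at the 30th percentile, and Cyp2b10 not without HET replicates 1 and 9. At 43 days itself Cyp2b10 was not called (-0.40 ± 0.41, adjusted p = 0.446).

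**Figure D4:**
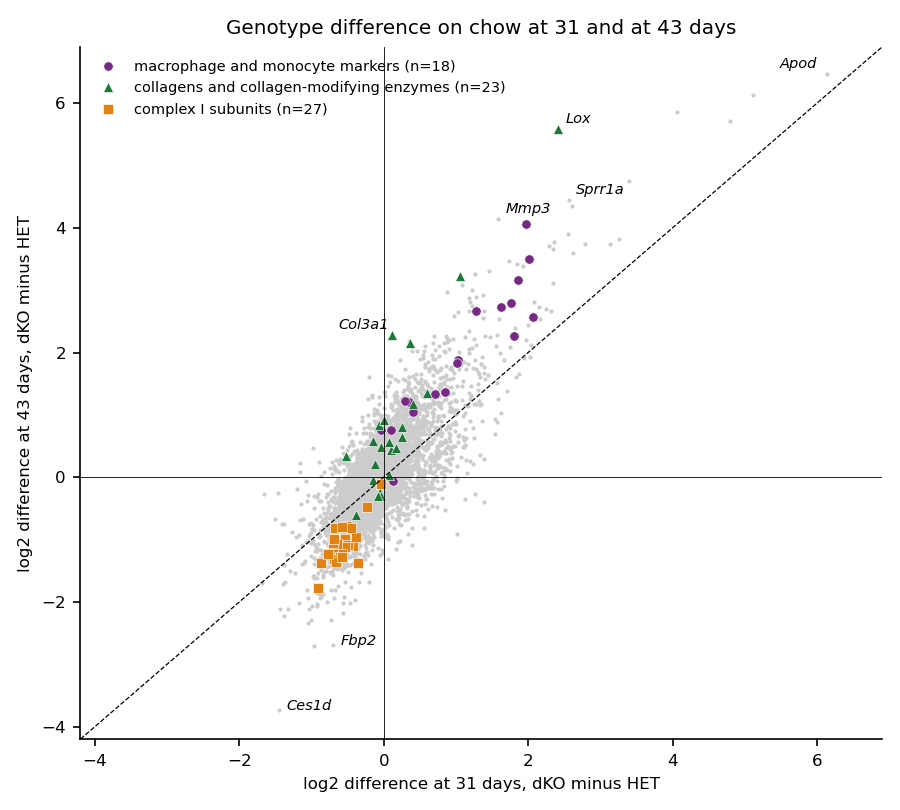
Log2 difference between dKO and HET hearts on chow at 31 days (horizontal) and at 43 days (vertical) for all 5672 tested genes (grey), with macrophage markers (purple circles), collagen genes (green triangles) and complex I subunits (orange squares); the dashed line marks equal differences. Col3a1 lies near 0 at 31 days (0.12) and at 2.28 ± 0.14 at 43 days, and Apod lies close to the line.

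Values within the dKO group spread widely in the 3 genes with the largest falls. The dKO medians of these genes lay under 4.65, where signal was not shown to be above background. No variation between hearts is therefore read from this spread. Ces1d ranged from 1.47 to 6.57 (median 3.87) in dKO and from 6.52 to 8.61 (median 7.70) in HET hearts, with 1 dKO heart at the floor, and Fbp2 from 2.51 to 6.45 (median 3.65) in dKO and from 6.22 to 7.16 (median 6.68) in HET hearts. In both, 11 of the 12 dKO hearts lay below the HET range and 1 lay within it. Rxrg spread over from 1.71 to 4.84 (median 3.004) in dKO and from 3.88 to 6.9 (median 6.43) in HET hearts. Lamb3, a laminin chain, was tighter in dKO hearts, at from 3.28 to 3.75 (median 3.52) in dKO and from 4.65 to 6.89 (median 6.01) in HET hearts, lower in every dKO heart (-2.29 ± 0.30, adjusted p = 5.00e-07). All its dKO values were under that limit as well. Across the 12 dKO hearts 6 pairs of genes were correlated to see if the hearts with more of one response had more of another. Pearson's r was highest for Ctss, the macrophage protease cathepsin S, with Ndufs3, a complex I subunit, at 0.487 (permutation p = 0.107, adjusted over the 6 pairs 0.644; Spearman's rho 0.490, permutation p = 0.108), and 0.328 without the 2 hearts farthest from the median of Ctss. For Ctss with Ndufs3 r was 0.066 as deposited and 0.153 after quantile normalization. Ctss with Col3a1 had an r of 0.366 after centring (permutation p = 0.240, adjusted 0.721). For Nppb with Atp2a2, the calcium pump of the reticulum, r was -0.03 after centring (permutation p = 0.925, adjusted 0.925), -0.82 as deposited (permutation p adjusted 0.0106) and -0.68 after quantile normalization (adjusted 0.118). No pair passed the threshold after centring, which does not show that the responses vary independently.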

How the data were processed

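Total RNA of whole hearts was labelled and hybridised to Affymetrix expression arrays, 1 array per heart. The authors made the deposited intensity values with MAS5, per the submitters' processing notes; its version and the step, if any, that scaled the arrays to each other are not given in the sources used here. The values are linear signals per probe set, and the number of arrays limits their precision.

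From the intensities of all 88 arrays a floor was set at the 10th percentile, then log2 was taken and each array was centred on its median. The brightest 60% of 12422 non-control probe sets by mean over the series were kept, and probe sets with 1 gene symbol (10833 on the array, 396 with several, 1193 with none) were reduced to the brightest per gene, which gave 5672 genes. Filtering on that mean leaves out genes that are bright in few arrays. Some probe sets are of types that can bind transcripts of related genes, and the design does not separate these.

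Genotypes were compared in R 4.3.3 by limma 3.58.1, with an intensity trend and Benjamini-Hochberg adjustment over all genes, and the change from 31 to 43 days was an interaction in 1 fit of 4 chow groups. The steps were checked on simulated data. Replicate numbers do not pair the hearts. Alternatives covered the scaling, floor, filter, probe sets, variance model, covariates of sex, of the actin control ratio and of array brightness, and left-out arrays; the last covariate and the omission of HET replicates 1 and 9 were chosen after seeing the data.

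The comparison, the 50 gene lists and the tests were chosen with earlier results of these data known, so list counts are descriptions. Genes to name were drawn from Scarb1, Apoe, the 15 largest changes each way, up to 4 members of each list by p, and the isoform, stress and sarcomere lists. The 5 largest changes from 31 days each way and the genes of the 6 correlated pairs were added. Not every gene of these sets is given above. Ackr3, Adgre1, Alas1, Arntl, Bhlhe40, Col1a2, Cry2, Csf1r, Cx3cr1, Cxcl12, Eng, F3, Fbln1, Fcgr2b, Icam2, Lama2, Lamb2, Lamc1, Lifr, Nr1h3, Ogn, Per3, Pfkl, Pfkp, Pgam2, Psme1, Rxra, Sri, Stim1, Urod and Vldlr were chosen after their values were seen, as were genes named as too dim to test. Promoters came from RefSeq. Protein sequences were not used here.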

Additional observations from a re-analysis of the deposited data

Results flagged for a closer look

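Among groups of up to 10 hearts, a heart was taken to stand apart where its gap to the nearest other heart was a large share of the group's range. The 9 HET hearts were checked in 179 tested genes named here, and 10 were marked, where chance alone marks about 1 in 20. The dKO group of 12 was too large for this check. HET replicate 4 was lowest in Ccr2 at 2.00 (the next heart was at 3.50) and in Mmp3 at 2.50 (next 3.85), and highest in Zap70 at 7.18 (next 6.30). HET replicate 5 was lowest in S100a8 at 2.53 (next 4.31) and highest in Ndufa13 at 9.88 (next 9.65). HET replicate 7 was lowest in Cfp at 3.96 (next 5.004), HET replicate 2 highest in Corin at 8.30 (next 7.77) and HET replicate 9 lowest in Pgam2 at 9.22 (next 9.98), Alas1 at 8.50 (next 9.35) and Icam2 at 5.01 (next 6.13).

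The difference between genotypes itself differed between the ages, by limma's interaction test. The changes towards higher values in dKO hearts from 31 to 43 days were 3.16 for Lox, 2.56 for Mmp3, 2.18 for Col5a2, 2.17 for Col3a1 and 2.09 for Postn. Those towards lower values were -2.30 for Ces1d, -1.99 for Fbp2, -1.92 for Reln, -1.79 for Cyp2b10 and -1.74 for Rxrg. The part of the smaller array set in the last 5 was not tested beyond the fit without it, in which none of them passed.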

How the results depend on the processing

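The total of 2678 genes stayed within 1.5 times under every alternative but a required change of 1.5-fold, which left 608 (333 higher, 275 lower). As deposited the split was 2022 higher and 598 lower, and 1251 and 1185 with array brightness as a covariate. The 519 changes from 31 days became 847 after quantile normalization (424 downward), 792 with array weights (287 downward) and 324 without the smaller array set (228 upward), and 292 were downward without HET replicates 1 and 9; the cause was not tested. Leaving out each heart in turn gave 2546 to 2729 genes (1053 to 1140 higher, 1454 to 1671 lower) and 464 to 575 changes from 31 days (341 to 431 upward, 111 to 207 downward, the last without HET replicate 9).

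Hearts of the same number did not deviate together (1 of 9 pairs above 0.1, range -0.146 to 0.344). With the replicate number as a block 2276 genes were called (927 higher, 1349 lower), 2236 of them shared with the fit without it, and 452 changes from 31 days.

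Differences that changed sign were small or rested on 1 probe set. As deposited Cox6a1 was at 0.0551, Cryab 0.0923, Cx3cr1 0.28, Lama2 0.0971 and Tnni1 0.00885, and Cox6a1 was at 0.00120 with array brightness as a covariate. Cx3cr1 was at 0.0250 with array weights, 0.0231 without HET replicates 1 and 9, and between -0.12 and 0.0247 with 1 heart left out. When the probe sets of a gene were averaged Col1a2 was at 0.68, Cxcl12 at 0.27 and Myh7 at -0.30. Leaving out 1 heart ended the call of Cnn1 in 14 of 21 cases, Cryab in 11, Reln in 15, Rxra in 13, Elane in 11, Thy1 in 7, Stim1 in 6, Eng in 3, Acta2 in 2 and Icam2 and Lama2 in 1 each, and gave one to Cox6a1 and Tnni1 in 3 each.

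Of the correlations, Nppb with Atp2a2 passed as deposited (r = -0.82, permutation p adjusted 0.0106). Col3a1 with Ndufs3 turned to -0.139 as deposited and -0.529 after quantile normalization, Sprr1a with Ctss to 0.321, 0.125 and, without the 2 hearts farthest from the median, 0.0866, and Hmox1 with Alas2 to 0.491 and 0.101, all without passing.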

Other observations

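Some members of the gene lists were too dim over the series to be tested but were set apart at 43 days. They were chosen after their values were seen, and no test was made. Il6, the cytokine interleukin 6, ranged from 5.01 to 6.93 (median 5.94) in dKO hearts and from 2.00 to 4.07 (median 2.26) in HET hearts, 4 of which were at the floor. Adam8, a membrane protease of leukocytes, ranged from 6.52 to 8.92 (median 7.90) against 2.20 to 4.48 (median 3.05). The chemokine receptor gene Ccr1 had medians of 6.22 and 3.48, and its ranges did not overlap either.

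Tnc, tenascin C, a matrix protein of healing wounds, ranged from 5.48 to 8.12 (median 7.03) in dKO and from 2.20 to 4.56 (median 3.87) in HET hearts. Ccn4, a secreted protein of the CCN family, ranged from 5.24 to 6.61 (median 5.98) against 2.36 to 4.84 (median 3.96). Fcer1g, the signalling chain of Fc receptors, and Ptpn6, a phosphatase of blood cells, had medians of 5.81 and 5.77 in dKO against 3.28 and 2.88 in HET hearts, without overlap. On the other side was Cpa3, carboxypeptidase A3 of mast cells, with 3.22 to 5.12 (median 3.85) in dKO and 4.14 to 6.39 (median 5.61) in HET hearts, and these ranges overlapped. Of 3 tested mast cell markers 1 was higher and 0 lower, so Cpa3 does not stand for that list. HET values of the genes with the widest gaps lie near the floor, so the size of a difference is not read from them.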
